A study of Mus musculus with 8 samples.

Results

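Aminoacyl-tRNA synthetases are the enzymes that join each amino acid to its transfer RNA, and 35 genes that encode them were followed in single-cell RNA sequencing of mouse pancreatic islets. The genes were taken from a written list by their symbol. All 35 were found under the same identifier in both replicates, out of 30406 gene identifiers that the replicates shared. The list comprised *Wars*, the tryptophan enzyme. It also held 10 cytosolic enzymes that are known targets of the transcription factor Atf4 (*Aars*, *Cars*, *Eprs*, *Gars*, *Iars*, *Lars*, *Nars*, *Sars*, *Tars* and *Yars*, called Atf4-type below), 8 other cytosolic enzymes (*Dars*, *Farsa*, *Farsb*, *Hars*, *Kars*, *Qars*, *Rars* and *Vars*) and 16 mitochondrial enzymes whose symbols end in 2 (*Aars2*, *Cars2*, *Ears2*, *Fars2*, *Hars2*, *Iars2*, *Lars2*, *Mars2*, *Nars2*, *Pars2*, *Rars2*, *Sars2*, *Tars2*, *Vars2*, *Wars2* and *Yars2*). In the symbols the opening letter stands for the amino acid in its single-letter code, except that *Eprs* charges both glutamate and proline, and *Farsa* and *Farsb* are the subunits of the phenylalanine enzyme.

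Charged transfer RNAs feed the ribosome, and the mitochondrion keeps a set of synthetases of its own for the proteins encoded in mitochondrial DNA. When cells run short of amino acids or meet other stress, the integrated stress response raises the translation of Atf4, which turns on genes for amino acid transport and synthesis and for many cytosolic synthetases. *Wars* is listed apart because interferon-γ induces it directly. Whether Atf4 also acts on *Wars* was not tested. β-cells exposed to interleukin-1 (IL-1) and interferon-γ (IFN-γ) also induce *Nos2*, the inducible nitric oxide synthase, and the nitric oxide made by that enzyme inhibits mitochondrial respiration and is a known trigger of the stress response.

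Islets came from male mice aged 12 to 16 weeks, labelled C57BL/6 and given as C57BL6/J in the study's methods. For each of 2 replicates the islets of 10 mice were pooled and then divided over 4 conditions: no treatment, a cytokine mixture (IL-1β at 10 U/mL and IFN-γ at 150 U/mL), the same mixture with 2 mM NMMA, and NMMA alone, each treatment for 18 h. NMMA is an inhibitor of nitric oxide synthases. Each of the 8 resulting libraries therefore mixed the cells of several mice, and libraries of the same replicate shared their mice. The tables held unique molecular identifiers (UMIs), which count captured RNA molecules, with 26549922 to 50731370 UMIs per library. Of 17426 cell barcodes 10876 passed the filters, and the classes used here were 6347 β-cells, 664 α-cells, 284 δ-cells, 324 macrophages and 375 endothelial cells. Every library showed all 9 β-cell, all 8 α-cell and all 13 macrophage markers in the class of that name, 9 or 10 of 10 endothelial markers and 3 to 5 of 6 δ-cell markers. A marker counted as shown with any UMI in the sum, and the same lists had named the classes. These counts therefore cannot tell classes apart, and the β-cell sums also showed all 8 α-cell markers in every library. The δ-cell class also carried 25980 to 160100 CPM (counts scaled to a common library total) of pancreatic polypeptide cell markers beside 28000 to 103300 CPM of its own, so it was a mixed endocrine class. The α-cell class likewise carried 29190 to 89810 CPM of pancreatic polypeptide cell markers beside 85780 to 218200 CPM of its own. Libraries shared at most 2 barcodes. The endothelial class included a cluster of 92 cells with few UMIs. Ductal cells were unequal over libraries, with 549 of 631 in replicate 2 of the untreated islets, where their median was only 780 UMIs.

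UMIs were summed per class and library, and each gene level below is given in CPM of the scaled library, replicate 1 before replicate 2. Sums of markers, above and below, are in CPM of the unscaled total of the class in the library. In such sums fewer molecules per cell and fewer cells with the gene cannot be told apart. Changes are log2 differences from edgeR's quasi-likelihood test with Benjamini-Hochberg adjustment over all genes tested, and a gene was called where the adjusted p was below 0.05. Within a class, the p-values measure the spread between libraries of 2 mouse pools. Comparisons that use the same untreated or cytokine libraries share those libraries. In the joint fits with β-cells and in the division by *Nos2* the library was a block. Their p-values measure how differences within a library vary between libraries.

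Atf4 and its partners bind a short sequence known as the CARE element, and its matches in the promoters of the synthetase genes are shown so that the letters can be read beside the expression values. RefSeq promoter windows of 300 bases (250 before to 50 after the annotated start, build GRCm38.p6) were matched for 26 of the 35 genes and searched on both strands for TGATGNAA. Windows of 30 bases around 1 match in each gene that held the motif follow, 5′ to 3′ on the strand that carries it, with the matched letters in capitals.
Aars, chr8:111033840-111033869, minus strand, match at 10 to 17 from the start: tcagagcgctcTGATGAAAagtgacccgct
Gars, chr6:55037960-55037989, minus strand, match at −30 to −23: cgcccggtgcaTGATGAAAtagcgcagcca
Iars, chr13:49682126-49682155, minus strand, match at 8 to 15: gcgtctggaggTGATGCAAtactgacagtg
Tars, chr15:11399655-11399684, plus strand, match at −15 to −8: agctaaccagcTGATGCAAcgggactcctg
Yars, chr4:129189895-129189924, plus strand, match at 4 to 11: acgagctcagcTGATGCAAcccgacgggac

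The matches fell in 5 of the 7 Atf4-type genes that had a window, in 0 of 5 other cytosolic genes and in 0 of 14 mitochondrial genes. Over all 32851 windows of this length, 3.97% held the motif. The interferon-stimulated response element, searched as a pair of GAAA runs that are 2 bases apart, matched *Qars* among the 26 genes against 3.44% of all windows. The interferon-γ activated site, searched as TTCNNNGAA, matched *Aars*, *Kars* and *Nars2* against 8.30% of all windows. A match of letters is a description and not a bound site. *Wars*, *Cars*, *Lars*, *Nars*, *Hars*, *Rars*, *Vars*, *Hars2* and *Pars2* had no entry.

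In β-cells, cytokines raised most of the cytosolic synthetases, and the few genes called lower were mitochondrial. Of the 35 genes, all of which passed the filter on low counts, 14 were higher and 4 lower than in untreated β-cells. Among all 12779 genes tested, 46.2% were called, 23.7% higher and 22.4% lower. The median change of the 35 genes was 0.35 on the log2 scale and that of all genes was 0.00. By role, *Wars*, 7 of the 10 Atf4-type genes (group median 0.75) and 6 of the 8 other cytosolic genes (median 0.71) were called higher, whereas the 16 mitochondrial genes had a median of −0.16 with 0 called higher and 4 called lower. That share of lower mitochondrial genes was close to the share of lower genes among all genes.

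**Figure D1:**
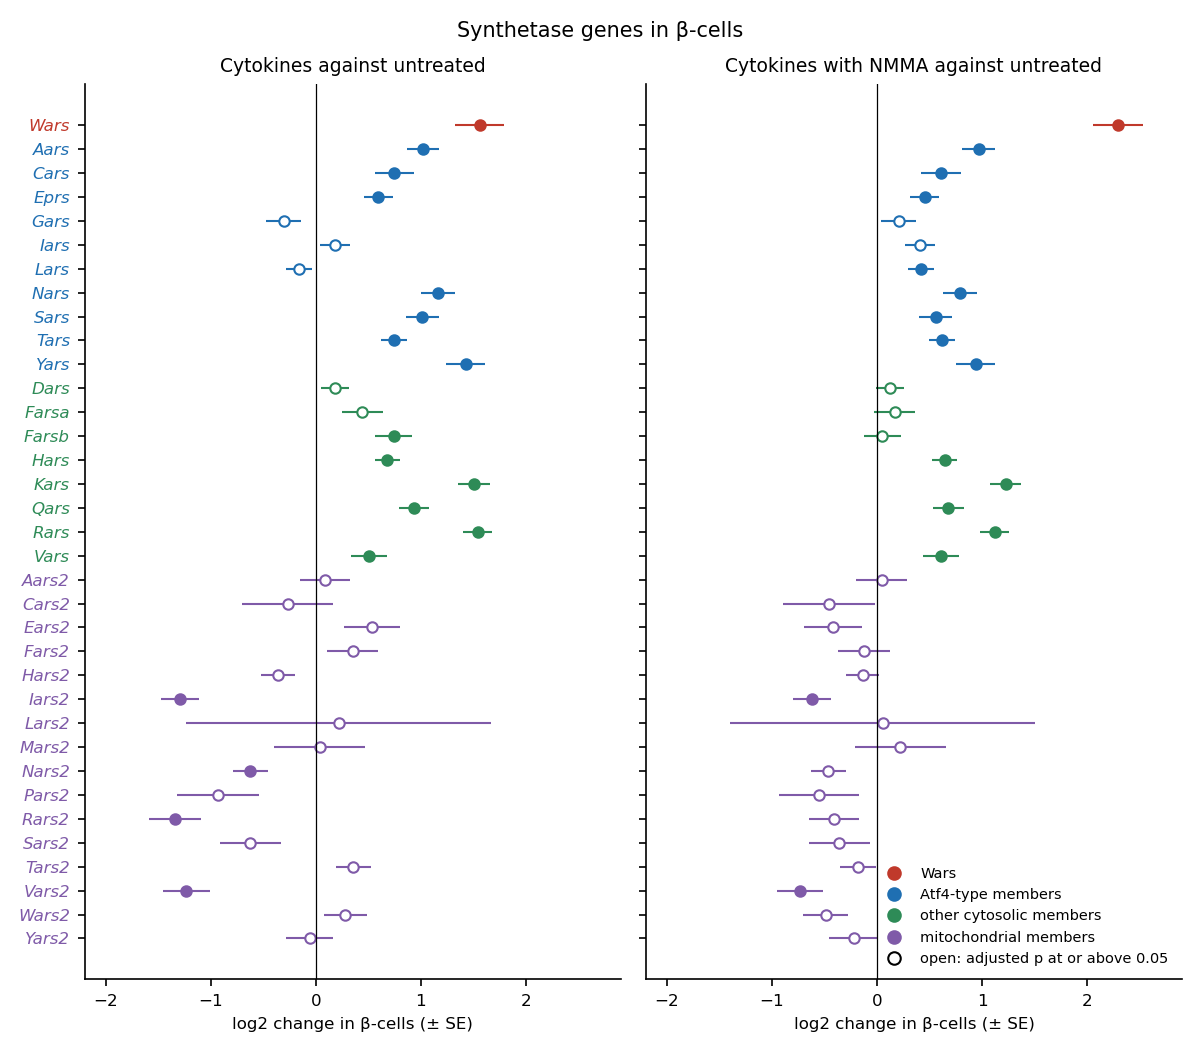
Change of each of the 35 synthetase genes in β-cells, in log2 units with its standard error (horizontal axis), for cytokines against untreated and for cytokines with NMMA against untreated. Each point is 1 gene, coloured by group, and filled where the adjusted p was below 0.05. Most cytosolic genes lie right of 0 in both panels, and the genes called lower are mitochondrial in both.

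*Wars* read 55.0 and 57.3 CPM in untreated β-cells, 206 and 125 CPM with cytokines, 280 and 270 CPM with cytokines and NMMA, and 43.9 and 58.1 CPM with NMMA alone. All 4 cytokine-treated libraries were above all 4 libraries without cytokines, and those with NMMA were the highest. The change with cytokines was 1.56 ± 0.23 (log2, SE, 2.95-fold, adjusted p = 0.00077, edgeR), and with cytokines and NMMA it was 2.29 ± 0.24 (4.90-fold, adjusted p = 0.00019, edgeR). The direct comparison of cytokines without and with NMMA gave −0.73 ± 0.23, which did not pass the threshold (adjusted p = 0.052 in edgeR, 0.114 with the replicate as a block). It was called lower by DESeq2, under total-UMI scaling, without the low-count filter and without cytokine replicate 1. The gene spans chr12:108860030-108894174 on the minus strand (GRCm38).

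Among the Atf4-type genes the 5 with the smallest p were *Yars*, *Nars*, *Sars*, *Aars* and *Tars*. *Yars* (tyrosine) was 26.3 and 26.7 CPM untreated and 84.0 and 58.3 CPM with cytokines, a change of 1.43 ± 0.19 (adjusted p = 0.00038). *Nars* (asparagine) was 71.2 and 97.0 CPM untreated and 189 and 188 CPM with cytokines, a change of 1.16 ± 0.16 (adjusted p = 0.00058). *Sars* (serine) was 141 and 150 CPM untreated and 326 and 262 CPM with cytokines, a change of 1.01 ± 0.15 (adjusted p = 0.00087). In each of these genes the groups were fully apart, with little spread between the untreated libraries except for *Nars*. *Aars* (alanine) rose from 56.2 and 59.1 CPM to 131 and 103 CPM (1.02 ± 0.16, adjusted p = 0.00088), and *Tars* (threonine) from 34.0 and 38.8 CPM to 61.5 and 60.4 CPM (0.74 ± 0.12, adjusted p = 0.0012). Exons of *Aars* share 1326 bases with exons of *Exosc6* on the same strand, and the part of this overlap in its counts was not tested.

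*Cars* (cysteine) and *Eprs*, which had the highest CPM of the Atf4-type transcripts in untreated β-cells at 164 and 177, rose by smaller amounts, 0.75 ± 0.19 and 0.60 ± 0.14. The other three Atf4-type genes were not called. *Iars* (isoleucine) changed by 0.18, *Lars* (leucine) by −0.16 and *Gars* (glycine) by −0.31 ± 0.17 (adjusted p = 0.16). *Gars* read 118 and 99.2 CPM untreated and 96.1 and 79.6 CPM with cytokines, so each cytokine library lay below both untreated libraries, and its promoter window is among those printed above. With the replicate as a block the difference in *Gars* passed the threshold as lower (adjusted p = 0.011).

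The other cytosolic synthetases had a median change close to that of the Atf4-type genes. *Rars* (arginine), *Kars* (lysine) and *Qars* (glutamine) belong to the multi-synthetase complex, an assembly of cytosolic synthetases. *Eprs*, *Iars*, *Lars* and *Dars* belong to it as well, and of these only *Eprs* was called. *Rars* rose from 27.9 and 31.4 CPM to 91.5 and 81.0 CPM (1.54 ± 0.14, adjusted p = 5.5e-05), the smallest p of the 35 genes in this comparison. *Kars*, which also supplies the lysine enzyme of mitochondria, rose from 40.8 and 38.7 CPM to 124 and 102 CPM (1.51 ± 0.15, adjusted p = 9.2e-05). *Qars* rose from 20.6 and 17.9 CPM to 41.1 and 32.7 CPM (0.94, adjusted p = 0.00089). *Hars* (histidine) went from 20.1 and 20.5 CPM to 33.2 and 31.9 CPM (0.68, adjusted p = 0.0017), and *Farsb* from 23.9 and 21.5 CPM to 44.3 and 31.5 CPM (0.74, adjusted p = 0.0082). *Vars* (valine) was called at 0.51, a call that was lost without either untreated replicate, either NMMA replicate or cytokine replicate 1, while *Farsa* at 0.44 (adjusted p = 0.090) and *Dars* (aspartate) at 0.18 (adjusted p = 0.30) were not. *Rars* and *Kars*, which were not on the Atf4-type list, thus had changes close in size to that of *Wars*.

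Of the mitochondrial synthetases, *Iars2*, *Rars2*, *Vars2* and *Nars2* were lower with cytokines. *Iars2* fell from 22.0 and 22.8 CPM to 7.67 and 10.7 CPM (−1.29 ± 0.18, adjusted p = 0.00058). *Rars2* fell from 15.8 and 9.85 CPM to 5.10 and 5.12 CPM (−1.34 ± 0.25, adjusted p = 0.0023), and *Vars2* from 4.62 and 4.83 CPM to 1.88 and 2.16 CPM (−1.23 ± 0.22, adjusted p = 0.0021). *Nars2* fell less, from 11.6 and 12.9 CPM to 8.01 and 7.88 CPM (−0.62 ± 0.17, adjusted p = 0.014). For each of these genes both cytokine libraries were below both untreated libraries. The call of *Nars2* was lost without either cytokine replicate and without untreated replicate 2. Exons of *Iars2* share 2148 bases with exons of *Rab3gap2* and of a further gene on the opposite strand, and whether counting used strand was not stated.

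The other 12 mitochondrial genes were not called. Apart from *Lars2* they were low transcripts, from 0.882 CPM in the lowest library of *Pars2* to 22.8 CPM in the highest of *Cars2*, and their changes ran from −0.93 for *Pars2* (adjusted p = 0.076) to 0.54 for *Ears2* (adjusted p = 0.13). *Lars2* read 48.4 and 216 CPM untreated, 62.9 and 245 CPM with cytokines, 43.8 and 230 CPM with cytokines and NMMA, and 38.2 and 187 CPM with NMMA. Replicate 2 was 3.89 to 5.26 times replicate 1 in every condition, so the groups overlapped fully and the change of 0.22 ± 1.45 could not be resolved (adjusted p = 0.92).

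Because the islets of a replicate were a shared pool, the libraries were also compared within replicates. With the replicate as a block, 27 of the 35 genes were called, 19 higher and 8 lower, and 0 of the 18 were lost, while 8047 of all 12779 genes were called in that fit. The added higher genes were *Farsa*, *Ears2*, *Fars2*, *Lars2* (0.28, adjusted p = 0.023) and *Tars2*, and the added lower genes were *Gars*, *Hars2*, *Pars2* and *Sars2*. So 4 mitochondrial genes were called higher in that fit. Without the block, leaving out cytokine replicate 1 or untreated replicate 2 also lost *Cars* and *Farsb*, and leaving out untreated replicate 1 lost *Cars* and *Eprs*. When the sums were scaled by their total UMIs in place of TMM, which moved the median of all genes to −0.22, 13 genes were higher and 9 lower, with *Vars* lost and *Gars*, *Lars*, *Hars2*, *Pars2* and *Sars2* called lower.

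The partners of these enzymes were counted in lists chosen for their function. Of the 3 scaffold genes of the multi-synthetase complex, *Aimp1* (1.03) and *Aimp2* (0.76) were higher and *Eef1e1* was at 0.32 without passing the test. Of 28 genes of the Atf4 pathway outside the synthetases, 21 were higher and 1, *Vldlr*, lower, with a median of 1.21. *Atf4* itself read 155 and 170 CPM untreated and 466 and 328 CPM with cytokines (1.29). *Ddit3*, the stress-induced factor CHOP, changed by 2.62, and *Asns*, asparagine synthetase, by 0.94. The smallest p-values in this list belonged to *Ppp1r15a* (2.12), which encodes the phosphatase subunit that ends the stress response, *Nupr1* (2.88) and *Eif4ebp1* (2.22), a repressor of translation.

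All 20 interferon-γ targets in the list were higher, with a median of 4.44. *Irf1*, a transcription factor of the interferon response, read 19.8 and 20.5 CPM untreated and 186 and 187 CPM with cytokines (3.21). The interferon-inducible GTPase genes *Gbp4*, *Gbp5* and *Gbp7* changed by 10.3, 8.36 and 4.29. Of 12 genes that act beside the mitochondrial synthetases, 2 were higher (*Mrrf* 1.06 and *Mtif3* 0.58) and 2 lower (*Mtif2* −0.48 and *Gatc* −0.45), and of 6 genes that handle transfer RNA only *Trnt1*, which adds the terminal bases, was called (0.79). In the β-cell sums macrophage markers came to 75.4 and 55.2 CPM untreated, 200.3 and 100.2 CPM with cytokines, 340 and 168 CPM with cytokines and NMMA, and 48.2 and 39.7 CPM with NMMA, with 8 to 13 of 13 seen. They were thus higher in every library with cytokines than in any without. The α-cell markers summed to 284 to 4119 CPM, and the part of both lists in these results was not tested.

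The comparison of cytokines without and with NMMA asks what depends on nitric oxide synthase activity. Here 6 of the 35 genes were called, 3 higher and 3 lower without NMMA, against 19.3% of all genes, 8.98% higher and 10.3% lower. The median change was 0.13 for the 35 genes and −0.01 for all genes. *Lars* read 50.8 and 52.3 CPM with cytokines and 81.1 and 72.2 CPM when NMMA was added (−0.57, adjusted p = 0.015), and untreated β-cells stood between at 57.5 CPM in each replicate. *Farsb* was higher without NMMA, at 44.3 and 31.5 CPM against 25.7 and 21.2 CPM (0.69, adjusted p = 0.027), and the latter values were close to the untreated 23.9 and 21.5 CPM.

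Of the mitochondrial genes, *Ears2* (12.5 and 10.0 against 7.10 and 4.42 CPM, 0.96) and *Wars2* (4.75 and 4.58 against 2.83 and 2.62 CPM, 0.77) were higher without NMMA. *Iars2* (7.67 and 10.7 against 13.8 and 15.4 CPM, −0.68) and *Rars2* (5.10 and 5.12 against 10.8 and 8.52 CPM, −0.93) were lower. Both cytokine libraries were on the same side of both NMMA libraries in each of these genes. Most of the strongly raised cytosolic genes were not called between these groups in the fit without the replicate as a block. *Rars* changed by 0.42 (adjusted p = 0.057), *Yars* by 0.49 (0.091), *Sars* by 0.46 (0.066), *Nars* by 0.37 (0.14) and *Kars* by 0.28.

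The count in this comparison depended on the fit. With the replicate as a block 15 genes were called, 11 higher and 4 lower, the added ones being *Nars*, *Sars*, *Yars*, *Kars*, *Rars*, *Fars2*, *Lars2* and *Tars2* as higher and *Gars* as lower, while 5214 of all 12779 genes were called in that fit. DESeq2 called 8 genes, 3 higher and 5 lower, and total-UMI scaling, under which the median of all genes was −0.23, called 5 genes, all lower, without *Farsb*, *Ears2* and *Wars2*. Without cytokine replicate 1 a single gene was called, *Wars* as lower, and 1 was called without either library with cytokines and NMMA, while 3 were called without untreated replicate 1.

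With cytokines and NMMA against untreated β-cells, 16 genes were called, 14 higher and 2 lower, against 22.7% of all genes, 12.9% higher and 9.77% lower. The groups were *Wars*, 8 of 10 Atf4-type genes (median 0.58), 5 of 8 other cytosolic genes (median 0.63), and *Iars2* (−0.62) and *Vars2* (−0.73) among the mitochondrial genes. *Aars* was 123 and 102 CPM with NMMA present, a change of 0.96, and *Kars* was 98.0 and 87.9 CPM, a change of 1.23. *Rars* changed by 1.12, *Yars* by 0.94, *Nars* by 0.79, *Qars* by 0.68 and *Sars* by 0.56. *Lars*, which was not called with cytokines alone, was higher here (0.42, adjusted p = 0.041), *Farsb* was at 0.05, and *Rars2* at −0.41 did not pass the threshold (adjusted p = 0.26). The block added *Iars* as higher and *Cars2*, *Ears2*, *Nars2* and *Rars2* as lower, for 21 calls beside 5212 of all 12779 genes, and total-UMI scaling gave 14 higher and 0 lower. The count was 6 without untreated replicate 1, 8 without untreated replicate 2 and 7 without replicate 1 of the libraries with cytokines and NMMA.

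The Atf4 pathway list was 21 higher and 0 lower with cytokines and NMMA (median 0.99), against 3 higher and 1 lower between the cytokine groups (median 0.10). *Ddit3* read 257 and 211 CPM with NMMA present and 653 and 503 CPM without it, beside 58.3 and 130 CPM untreated. The interferon-γ targets were all higher with cytokines and NMMA (median 5.42), and 8 of 20 were lower in cytokines without than with NMMA, and *Irf1* read 294 and 277 CPM in the libraries with cytokines and NMMA.

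With NMMA alone edgeR called 0 of the 35 genes and 0.0% of all genes, with 6 of the 35 genes and 923 of all genes at an unadjusted p under 0.05, and DESeq2 also called 0 of the 35. The median change of the Atf4-type genes was 0.41. *Cars* read 28.6 and 27.3 CPM untreated and 47.6 and 37.1 CPM with NMMA (0.60), *Nars* 109 and 122 CPM with NMMA (0.46) and *Iars* 36.5 and 40.5 CPM (0.45). With the replicate as a block 6 of the Atf4-type genes were called higher, namely *Cars* (adjusted p = 0.0056), *Nars* (0.019), *Tars* (0.028), *Iars* (0.035), *Aars* (0.040) and *Yars* (0.050), while 446 of all 12779 genes were called in that fit. The 28 Atf4 pathway genes had a median of 0.51 with 0 called, and *Atf4* read 247 and 217 CPM. Since NMMA was also present in the combination with cytokines, these values stand beside the changes described there.

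To set the interferon-responsive gene against the Atf4-type genes, *Wars* was expressed as a percentage of the summed Atf4-type UMIs in each library. In β-cells it was 7.61% and 7.51% untreated, 15.95% and 11.2% with cytokines, 24.4% and 26.0% with cytokines and NMMA, and 4.71% and 6.37% with NMMA. The mean log2 ratio was 0.82 higher with cytokines than untreated (1.76-fold) and 1.74 higher with cytokines and NMMA (3.33-fold), with no overlap between these groups. These percentages are given as a description with no test.

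**Figure D2:**
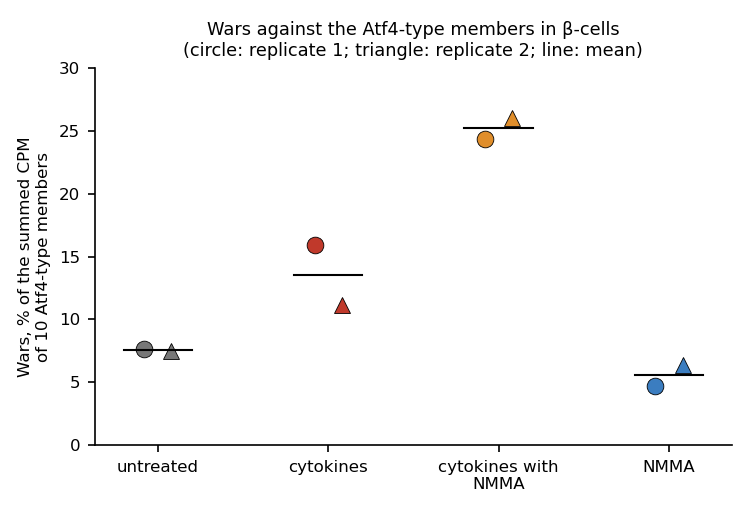
*Wars* as a percentage of the summed UMIs of the 10 Atf4-type genes in β-cells (vertical axis, percent), 1 point per library for the 4 conditions. The cytokine libraries with NMMA, at 24.4% and 26.0%, lie above the cytokine libraries without it, at 15.95% and 11.2%, and all of these lie above the libraries without cytokines.

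Within the cytokine-treated libraries, β-cells of at least 10000 UMIs were also divided by whether *Nos2* was seen after each cell had been thinned to 10000 UMIs. β-cells with fewer UMIs were left out. Cells with a *Nos2* UMI made up 48.6% and 43.8% of the β-cells kept with cytokines and 65.7% and 57.5% with cytokines and NMMA. Of the 35 genes 2 were called, both higher in cells with *Nos2*, against 11.6% of all genes, 6.98% higher and 4.64% lower. *Wars* was 242 CPM in cells with and 157 CPM in cells without *Nos2* in cytokine replicate 1, 136 and 105 CPM in replicate 2, and 298 against 195 and 304 against 175 CPM in the libraries with NMMA. It was higher in all 4 libraries (0.58 ± 0.06, adjusted p = 6.5e-07). *Lars* was also higher in all 4, for example at 76.0 against 58.5 CPM in replicate 2 with NMMA (0.24, adjusted p = 0.016). The other 33 genes, among them all other Atf4-type genes, were not called, and total-UMI scaling gave 2 higher and 1 lower. The call of *Lars* was lost without replicate 2 of either group, which left 1 gene, *Wars*. Cells with *Nos2* had more UMIs before thinning, with medians of 25350 to 33546 against 23910 to 29409, and the part of depth was not tested.

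**Figure D3:**
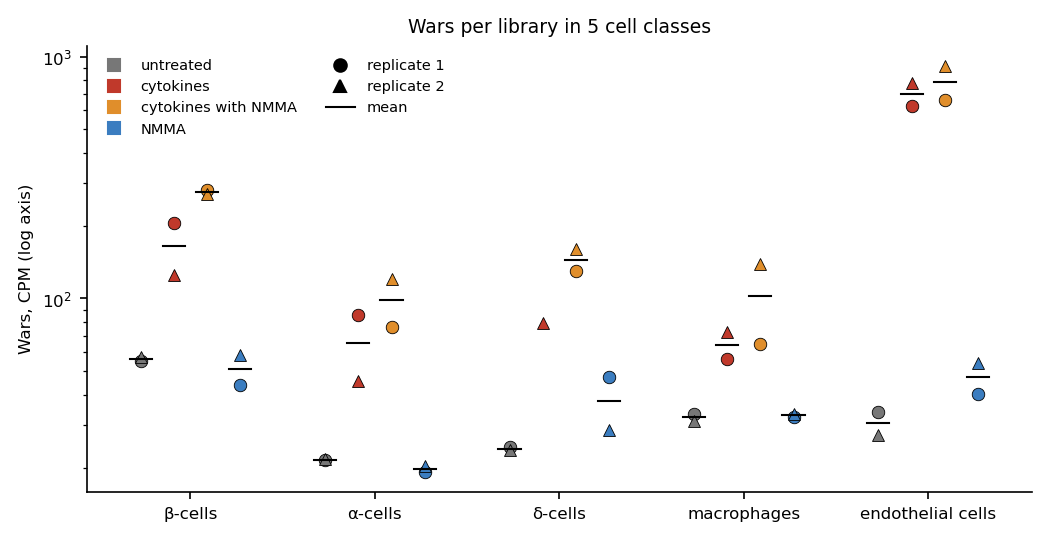
Level of *Wars* (vertical axis, CPM on a log scale) in β-cells, α-cells, δ-cells, macrophages and endothelial cells, 1 point per library with a bar at the mean of each condition. Endothelial cells rise from 33.9 and 27.4 CPM untreated to between 625 and 916 CPM in the libraries with cytokines.

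The response of *Wars* was not limited to β-cells, and its highest levels were in endothelial cells. Endothelial cells read 33.9 and 27.4 CPM untreated, from 18 and 20 UMIs, and 625 and 776 CPM with cytokines, from 132 and 274 UMIs. With cytokines and NMMA they read 661 and 916 CPM and with NMMA alone 40.4 and 54.2 CPM, so the groups with and without cytokines were far apart and NMMA made no called difference (−0.17, adjusted p = 1.0). The change with cytokines was 4.52 ± 0.30 (22.9-fold, adjusted p = 1.7e-08, edgeR). In a joint fit with β-cells, in which the library was a block, the cytokine effect on *Wars* was 3.16 ± 0.33 larger in endothelial cells (8.93-fold, adjusted p = 4.3e-19), the only one of the 35 genes called, against 5.88% of all genes, 2.50% with a larger and 3.37% with a smaller effect. Total-UMI scaling added *Eprs* with a smaller effect. Within endothelial cells *Wars* was the only one of 23 genes tested that was called, also in cells of at least 1000 UMIs, against 6.03% of all genes (4.47% higher and 1.56% lower), and 0 were called between the cytokine groups (0.0% of all genes, 357 of all genes and 0 of the 23 at an unadjusted p under 0.05, and 0 of the 23 in DESeq2).

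In the endothelial sums, 20 of 20 interferon-γ targets and 5 of 22 Atf4 pathway genes were higher. *Wars* as a percentage of the Atf4-type UMIs went from 3.81% and 3.45% to 56.4% and 78.3%, an 18.3-fold rise in the mean ratio, and reached 54.5% and 101.5% with NMMA. Markers of macrophages summed to 1650 CPM with all 13 seen in replicate 1 with cytokines and NMMA and to 3.23 to 40.7 CPM in the other 7 libraries, and their part in the level of *Wars* was not tested. Endothelial markers themselves summed to 15280 and 13550 CPM untreated and to 9718 and 7245 CPM with cytokines, and the part of this change in the results was not tested.

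In α-cells cytokines raised 8 and lowered 1 of the 32 genes tested, against 21.4% of all genes (12.8% higher and 8.59% lower), and the medians were 0.18 and −0.04. *Wars* read 21.4 and 21.7 CPM untreated, 85.6 and 45.6 CPM with cytokines, 76.5 and 120 CPM with cytokines and NMMA, and 19.1 and 20.3 CPM with NMMA (1.54 for cytokines, adjusted p = 0.0025). *Sars* had the largest of the Atf4-type changes, from 74.9 and 85.2 CPM to 213 and 246 CPM (1.52, adjusted p = 0.00035). The cytokine libraries were above every library without cytokines in both genes. *Cars* rose from 13.6 and 15.6 CPM to 37.4 and 34.8 CPM (1.28) and *Yars* from 19.98 and 19.6 CPM to 48.3 and 43.9 CPM (1.21). *Rars* rose from 42.1 and 46.4 CPM to 96.5 and 73.8 CPM (0.92) and *Vars* from 32.8 and 35.3 CPM to 57.6 and 53.1 CPM (0.69). *Kars* (1.20) and *Aars* (0.90, from 27.8 and 46.9 CPM) were also higher, and in each of these genes both cytokine libraries were above both untreated ones. *Rars2* was lower, at 16.4 and 13.1 CPM untreated against 4.67 and 5.80 CPM with cytokines (−1.42, adjusted p = 0.041). For *Wars*, *Sars* and *Rars2* the cytokine libraries did not overlap the untreated ones.

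With NMMA added, *Sars* was 89.1 and 124 CPM, *Aars* was 34.4 and 45.8 CPM against 68.5 and 73.0 CPM with cytokines alone, and *Rars2* was 20.2 and 13.4 CPM. These were the 3 genes called between the cytokine groups in α-cells (1.11, 0.82 and −1.62), against 10.9% of all genes, 5.69% higher and 5.19% lower. *Kars* stayed at 82.5 and 100.1 CPM with NMMA, beside 87.2 and 97.8 CPM without it and 37.8 and 42.8 CPM untreated. Of the Atf4 pathway list, 17 of 27 genes were higher and 1 lower with cytokines, and 10 were higher and 1 lower in cytokines without than with NMMA.

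The block raised the α-cell count to 13, with *Nars* (1.15) and *Lars2* higher and *Gars* (−0.77) and *Iars2* (−0.98) lower, and the count between the cytokine groups to 5, with *Cars* and *Lars2* added as higher. Of all 9929 genes the block called 2866 and 1880. DESeq2 called 6 higher and 0 lower, and 1 higher and 0 lower between the cytokine groups. With total-UMI scaling, which placed the median of all genes at −0.51 and −0.41, the counts were 3 higher and 7 lower, and 1 higher and 3 lower. Without untreated replicate 1 the first count was 4, and without replicate 1 of the cytokine libraries with NMMA the second was 0. All 9 β-cell markers were seen in the α-cell sums of 7 libraries and 8 of them in the other. They summed to 10640 and 28700 CPM untreated and to 53830 and 51070 CPM with cytokines. Pancreatic polypeptide cell markers came to 89810 CPM in replicate 2 with cytokines and NMMA, above the 85780 CPM of α-cell markers there. The part of both lists in the α-cell results was not tested.

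The cytokine effect differed between α- and β-cells for *Eprs* alone (−0.88, adjusted p = 0.0035), against 3.91% of all genes, 1.94% with a larger and 1.97% with a smaller effect. *Eprs* read 228 and 225 CPM in untreated α-cells and 165 and 196 CPM with cytokines, while it rose in β-cells from 164 and 177 CPM to 268 and 247 CPM. The groups did not overlap in either class and lay in opposite directions, although the change within α-cells (−0.33) was not itself called. Total-UMI scaling called 1 gene with a larger and 2 with a smaller effect in α-cells, and the call of *Eprs* was lost without untreated replicate 1 and without cytokine replicate 1.

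δ-cells were few, with 79 and 28 cells untreated and 8 and 11 with cytokines, of which the library with 8 cells was left out, so that the cytokine group was a single library assumed to vary like the others. Of 26 genes tested 3 were higher, against 7.60% of all genes, 4.61% higher and 2.99% lower. *Wars* read 24.2 and 23.7 CPM untreated, 78.8 CPM with cytokines, from 17 UMIs, and 130 and 160 CPM with cytokines and NMMA (1.70, adjusted p = 0.021). *Aars* was at 36.3 and 41.4 CPM against 125 CPM (1.71, adjusted p = 0.0068) and *Kars* at 32.7 and 35.5 CPM against 111 CPM (1.72, adjusted p = 0.0064). The calls were unchanged with the block or when the library of 8 cells was kept. DESeq2 called 0 of them, and without untreated replicate 1 only *Kars* was called. The markers of the δ-cell sums differed as well. Those of δ-cells summed to 89380 and 81110 CPM untreated and to 28000 CPM in the cytokine library, those of pancreatic polypeptide (PP) cells to 89930 and 160100 against 25980 CPM, and those of α-cells to 513 and 1444 against 8033 CPM. Their part in the δ-cell results was not tested. Between the cytokine groups edgeR and DESeq2 called 0, against 3.01% of all genes, with 3 genes at an unadjusted p under 0.05. The cytokine effect differed from that in β-cells for 0 of the 35 genes in edgeR and in DESeq2, against 3.07% of all genes, with 7 at an unadjusted p under 0.05.

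In macrophages 0 of the 16 genes tested were called with cytokines, against 4.62% of all genes, with 3 at an unadjusted p under 0.05 and 0 called by DESeq2. *Wars* was 33.3 and 31.2 CPM untreated and 56.3 and 72.4 CPM with cytokines, from 25 UMIs in each library, so the groups were apart but the change of 0.99 did not pass (adjusted p = 0.23). With cytokines and NMMA *Wars* was 64.8 and 139.5 CPM. In the same cells 18 of 20 interferon-γ targets and 2 of 11 Atf4 pathway genes were higher. Between the cytokine groups 0 of the 16 were called by edgeR or DESeq2, with 0 at an unadjusted p under 0.05, against 0.116% of all genes.

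The cytokine effect was smaller in macrophages than in β-cells for 5 genes, against 5.17% of all genes, while 0.850% had a larger effect and 6.02% either. They were *Nars* (−1.31, adjusted p = 0.0090), *Sars* (−1.26, 0.017), *Kars* (−1.49, 0.026), *Qars* (−1.56, 0.033) and *Rars* (−1.58, 0.0014). *Rars* read 69.3 and 70.9 CPM in untreated macrophages and 72.1 and 66.6 CPM with cytokines, and *Kars* 33.3 and 32.6 against 31.5 and 37.7 CPM, beside the changes of 1.54 and 1.51 in β-cells. *Nars* at 77.6 and 90.7 against 51.8 and 110 CPM, *Sars* at 52.7 and 100.6 against 63.1 and 72.4 CPM and *Qars* at 49.9 and 29.8 against 22.5 and 29.0 CPM spread widely between replicates, and the median of all genes in this comparison was −0.35.

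DESeq2 called 0 of these differences and total-UMI scaling kept *Nars* and *Rars*. The count was 0 without cytokine replicate 1 or untreated replicate 2, 2 without untreated replicate 1 and 1 without replicate 2 of NMMA alone. β-cell markers in the macrophage sums fell from 18540 and 43560 CPM untreated, with all 9 seen, to 2280 and 6747 CPM with cytokines, with 3 of 9 seen in each library, and their part in these differences was not tested.

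**Figure D4:**
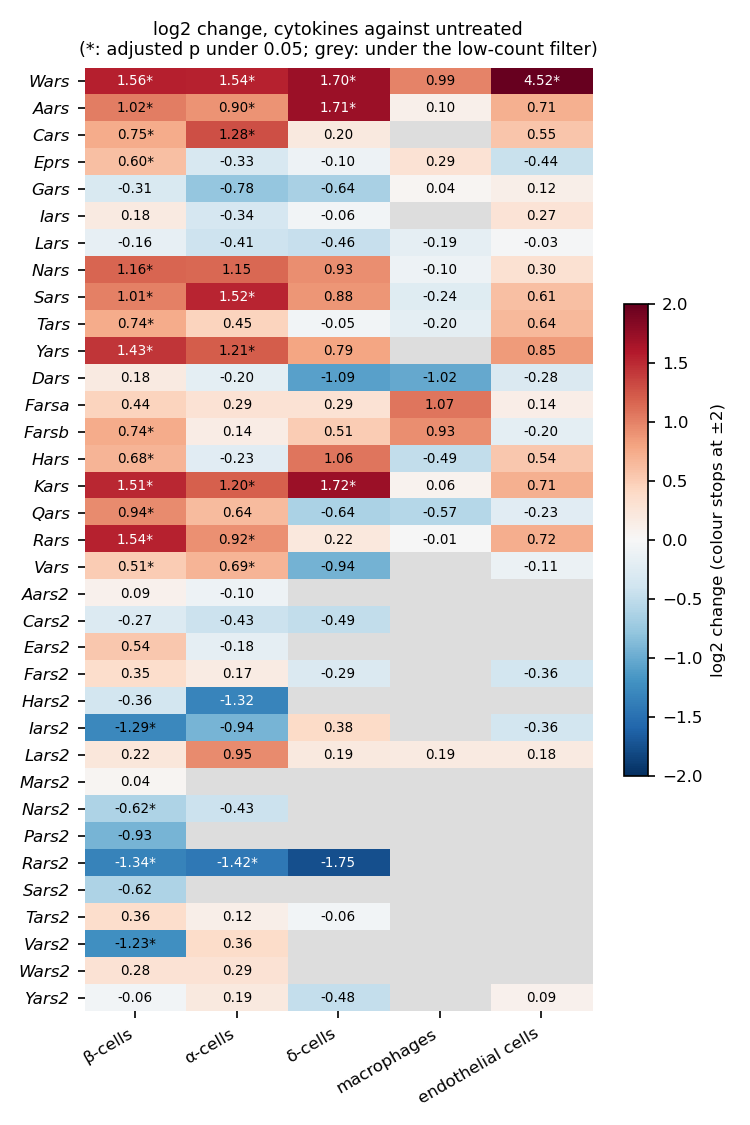
Change with cytokines against untreated (colour, log2 units) for the 35 synthetase genes (rows) in the 5 cell classes (columns). Asterisks mark an adjusted p below 0.05 and grey marks a gene under the filter on low counts. The β-cell column holds 18 asterisks and the α-cell column 9, while δ-cells have 3, endothelial cells 1 (*Wars*) and macrophages 0.

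Levels in untreated islets were compared between each class and β-cells with the library as a block. All 35 genes entered these fits. Within a class alone, 32 passed the low-count filter in α-cells, 26 in δ-cells, 16 in macrophages and 23 in endothelial cells. Genes with few UMIs in the other class had little room to be called higher than in β-cells, so for them the direction was largely fixed. *Wars* and the Atf4-type genes were mostly lower outside β-cells. Lower and higher genes numbered 10 and 0 in α-cells, where 29.7% of all genes were called, 16.4% lower and 13.3% higher. The counts for δ-cells were 12 and 0, against 19.5% of all genes (11.4% lower and 8.12% higher). Macrophages had 10 lower and 1 higher, against 45.5% (23.8% lower and 21.7% higher), and endothelial cells 18 and 1, against 54.1% (31.9% lower and 22.2% higher). *Wars* was lower by log2 differences of −1.81, −1.99, −1.20 and −1.91 in that order, and *Aars* by −1.05, −1.36, −1.27 and −1.22. The Atf4-type group had medians of −0.78, −0.69, −1.28 and −0.87, beside medians of all genes of −0.01, −0.08, −0.21 and −0.28.

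*Yars* differed most in macrophages (−2.21), where the untreated sums held only 2 and 6 of its UMIs. *Sars* was lower in every class, from −1.29 in α-cells to −0.97 in δ-cells. The genes with a higher level than in β-cells were *Rars* in macrophages (0.85) and *Qars* in endothelial cells (0.57). Of the mitochondrial genes, 5 were called lower in endothelial cells, namely *Cars2* (−2.10, from 5 and 6 endothelial UMIs), *Ears2*, *Nars2*, *Rars2* and *Tars2*, the latter 4 from 0 to 8 UMIs per untreated library. Only 4 of the 16 mitochondrial genes passed the low-count filter in endothelial cells alone, and genes under it had little room to be called higher. *Nars2* was also lower in α-cells (−0.94, from 14 and 15 UMIs) and δ-cells (−1.58, from 6 and 2 UMIs).

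These level differences depended on scaling. Scaled by total UMIs, the counts of higher and lower genes were 12 and 5 for α-cells, 3 and 2 for δ-cells, 5 and 7 for macrophages and 8 and 4 for endothelial cells, while the medians of all genes moved to 0.51, 0.57, 0.09 and 0.74. The lower level of *Lars* in δ-cells and of 9 genes in endothelial cells, *Iars*, *Lars*, *Sars*, *Tars*, *Yars*, *Dars*, *Farsb*, *Kars* and *Vars*, turned into a higher one under that scaling. All of those values were still under the moved median of all genes. A change of scaling moves all genes about alike, so this follows from the scaling and is no separate evidence. With either untreated library left out 5 genes were called in δ-cells, without untreated replicate 2 there were 6 in macrophages, and in endothelial cells there were 10 without untreated replicate 1 and 12 without replicate 2.

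*Lars2* behaved differently from the other members, and its counts rose in barcodes with few UMIs. Over all 17426 barcodes, before any filter, barcodes under 1000 UMIs held 7.67 and 16.6 *Lars2* UMIs per 10000 in the untreated libraries, against 0.437 and 1.44 in barcodes of 30000 UMIs or more. The corresponding values were 4.30 and 79.2 against 0.544 and 1.51 with cytokines, 4.14 and 15.1 against 0.486 and 1.46 with cytokines and NMMA, and 8.24 and 22.6 against 0.367 and 1.25 with NMMA. The rate was higher in the low barcodes of 8 of 8 libraries, with a median ratio of 14.6 and a range of 7.90 to 52.3. This is a description over barcodes, with no test.

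**Figure D5:**
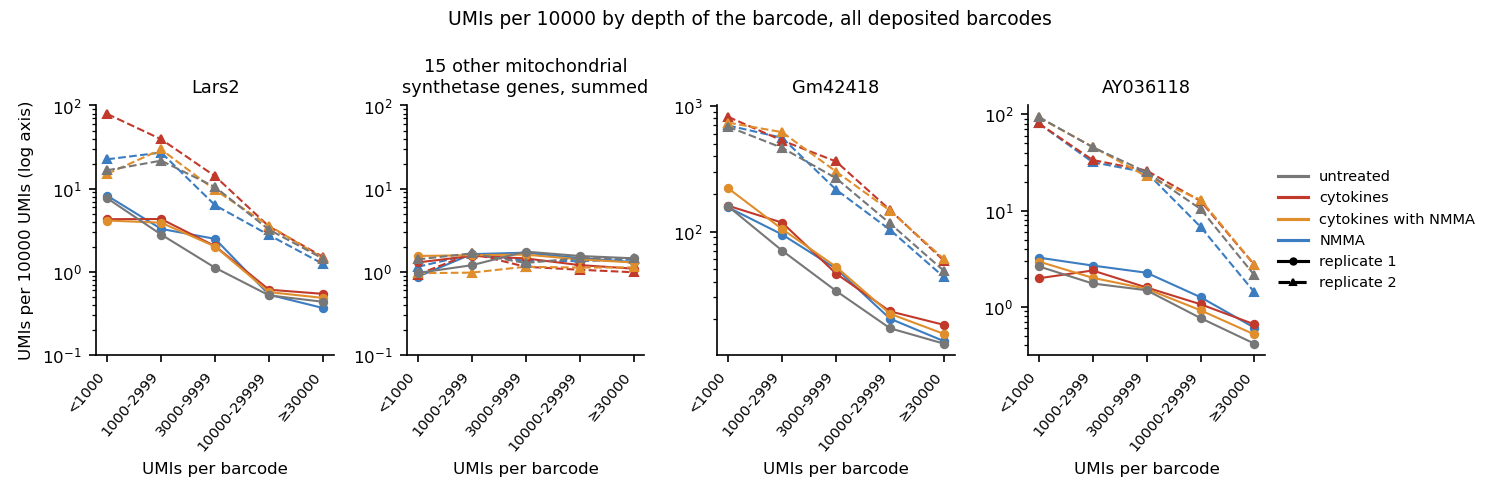
UMIs per 10000 UMIs (vertical axis, log scale) by the number of UMIs of the barcode (horizontal axis, bins from under 1000 to 30000 or more) for *Lars2*, for the other 15 mitochondrial synthetases summed, and for *Gm42418* and *AY036118*, 1 line per library, solid for replicate 1 and dashed for replicate 2. The lines of *Lars2*, *Gm42418* and *AY036118* fall with depth, and the summed line of the other mitochondrial synthetases does not fall as they do.

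The other members did not share this pattern to that extent. *Sars2*, the next highest, had a median ratio of 2.18 from very few UMIs. The course of *Lars2* was closer to that of *Gm42418* (chr17:39846958-39848788, plus strand), with a median ratio of 13.2, and *AY036118* (chr17:39847113-39848035, minus strand), with 17.9, which are transcripts annotated over ribosomal RNA sequence. Both were higher in the low barcodes of 8 of 8 libraries. *Malat1*, a nuclear noncoding RNA that is often high in damaged cells, had a ratio of 1.37 and was higher in 5 of 8, and its ratio was 3.53 in barcodes that passed the filters, 2.07 between quartiles of UMIs and 2.53 with mitochondrial UMIs left out.

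*Lars2* lies at chr9:123366927-123462666 on the plus strand (GRCm38) and no exon of another gene overlaps it on either strand. Barcodes under 1000 UMIs also differed between replicates in mitochondrial UMIs, at 54.4% to 64.8% in replicate 1 and 7.64% to 14.6% in replicate 2. The replicates were made with different versions of the counting software, so that replicate and version cannot be told apart in the higher *Lars2* levels of replicate 2. The ratio was 21.3 in barcodes that passed the filters, 10.3 between the lowest and highest quartiles of UMIs, and 20.6 with mitochondrial UMIs left out of the total.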

How the data were processed

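Libraries of dispersed islets were made by the submitters with a droplet-based 3′ single-cell kit (10x Genomics), and the authors deposited UMI counts per gene and barcode from CellRanger against mm10. Per the file headers, version 3.0.0 made the tables of replicate 1 (31053 genes) and version 6.0.0 those of replicate 2 (32285 genes). Whether counting used strand was not given in the sources used here. After the study's methods, barcodes needed 200 or more genes, no more than 5500 (replicate 1) or 6500 (replicate 2), and a mitochondrial share of UMIs of up to 10%. Counts scaled to 10000 per cell over 2000 variable genes and 30 components were clustered with the Leiden method at resolution 1 (scanpy 1.11.5, leidenalg 0.10.2, Python 3.11.15), and the 25 clusters were named from written marker lists. The study's own cell labels were not used. Doublet scores marked 200 cells (1.84%), which were kept in the main sums.

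Raw UMIs were summed per class and library with at least 10 cells, giving 11635075 to 35192972 UMIs for β-cells, 872689 to 1989784 for α-cells, 199796 to 919118 for δ-cells, 341918 to 718709 for macrophages and 222994 to 702718 for endothelial cells. Low sums limit the precision of the latter classes, where many genes had under 30 UMIs per library. Sums were tested with edgeR 4.0.16 (filterByExpr, TMM, robust quasi-likelihood F test, 2 sided, R 4.3.3) over all genes, with all 4 conditions in the fit, and DESeq2 1.42.0 was an alternative. Each SE is the absolute log2 change divided by the root of F. The scripts were tested on simulated data first. Other alternatives were total-UMI scaling, no filter, the replicate block, each library left out, doublets removed, cells of at least 5000 UMIs (endocrine) or 1000 UMIs (other classes), thinning to 5000 UMIs and, chosen after seeing the data, a minimum of 5 δ-cells.

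The pairing comes from the study's methods, in which a replicate is 1 pool of islets divided over the conditions. Deviations of the libraries from their condition means correlated between conditions over 12779 genes in β-cells at r = 0.605 to 0.700, median 0.666, for 6 pairs of conditions, as a description. The members and gene lists were chosen with earlier results of these data known. All 35 members were accounted for, and values per library were given for *Wars*, *Lars2*, up to 5 members with the smallest p of each other group in β-cells with cytokines, and members called elsewhere. Context lists were given as counts with the 3 smallest p-values and with *Atf4*, *Ddit3*, *Asns* and *Irf1*, and a further gene and a sequence window are not reported here. Values shown for other members were added after their levels had been seen.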

Additional observations from a re-analysis of the deposited data

Results flagged for a closer look

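The following genes stood out because a joint fit found that the cytokine effect differed between another cell class and β-cells (interaction, adjusted p below 0.05). In endothelial cells the effect on *Wars* was larger by 3.16 on the log2 scale. In α-cells the effect on *Eprs* differed by −0.882. In macrophages the effects differed by −1.31 for *Nars*, −1.26 for *Sars*, −1.49 for *Kars*, −1.56 for *Qars* and −1.58 for *Rars*.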

How the results depend on the processing

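For the cytokine effect in β-cells DESeq2 called the same 18 genes, and leaving out each library in turn gave 14 to 20. Leaving out a library gave 1 to 6 calls for cytokines without against with NMMA, 6 to 14 for cytokines with NMMA against untreated, and 0 for NMMA alone in β-cells. In α-cells the ranges were 4 to 9 against untreated and 0 to 3 between the cytokine groups, in δ-cells 1 to 3, and in endothelial cells 1 to 1. For untreated levels against β-cells the ranges were 7 to 12 in α-cells, 5 to 13 in δ-cells, 6 to 15 in macrophages and 10 to 20 in endothelial cells. For differences of the cytokine effect they were 0 to 3 in α-cells, 0 to 5 in macrophages and 1 to 2 in endothelial cells, and for the division by *Nos2* 1 to 3.

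With the replicate block the counts were 15 for cytokines without against with NMMA and 6 for NMMA alone in β-cells, and 5 between the cytokine groups in α-cells. The block gave 27 and 21 in the other β-cell comparisons and 13 in α-cells against untreated, and changed no other call. DESeq2 called 1 between the cytokine groups in α-cells, 0 in δ-cells, and for untreated levels 6 in α-cells, 5 in δ-cells and 9 in endothelial cells. It called 0 differences in macrophages and 1 gene in the division by *Nos2*, as did thinning to 5000 UMIs. Without the low-count filter 2 differences were called in α-cells. Total-UMI scaling called 17, 5 and 12 for untreated levels in α-, δ- and endothelial cells, and 3, 2 and 2 differences in α-cells, macrophages and endothelial cells.

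Total-UMI scaling turned the sign of 10 level differences from lower to higher. They were *Lars* in δ-cells (0.0327) and, in endothelial cells, *Iars* (0.441), *Lars* (0.151), *Sars* (0.0296), *Tars* (0.446), *Yars* (0.165), *Dars* (0.486), *Farsb* (0.336), *Kars* (0.222) and *Vars* (0.369). A change of scaling moves all genes about alike, and each of these values stayed under the moved median of all genes. The single-gene values cover the 123 gene changes that were called or reported, so genes called only under an alternative are mostly outside them. Of their 1504 values, 1223 kept their direction and side of the threshold, 269 kept the direction without passing, 2 passed only then and 10 reversed. Depth limited δ-cells, macrophages and endothelial cells, where 26, 16 and 23 of the 35 genes passed the filter.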
